A study of Mus musculus with 8 samples.

Results

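The 7 genes described here are the perforin gene Prf1 and the granzyme genes Gzma, Gzmb, Gzmc, Gzmd, Gzme and Gzmf, taken from the 32285 genes of the count files. They were followed in single cells sorted as CD45+CD11b+Ly6Chi, which is how monocytic suppressor cells of the myeloid line are gated. The cells came from mice carrying MC38 tumors, a colon carcinoma line, and were taken either from the tumor or from blood. Tumors were left untreated (control) or had received 1 dose of 20 Gy of ionizing radiation (IR) 3 days earlier. There were 4 droplet libraries, 1 for each tissue and treatment, and every library mixed cells of mice that were all Ythdf2 fl/fl on a C57BL/6 background, without Cre (WT) or with Lyz Cre (Ythdf2-cKO, Cre at the Lyz2 locus, active in myeloid cells). The mice were young adults of both sexes, and the cells of several mice were pooled, so each of the 8 groups was 1 pool in 1 library. The genotype of a droplet was read from hashtag antibodies against CD45 and MHC class I, TotalSeq B0301 for WT and B0302 for cKO. A barcode with at least 20 hashtag UMIs (unique molecular identifiers, each marking 1 captured molecule) was labelled WT where B0301 was at least as high as B0302, and cKO where B0302 was at least 4 times B0301. This gave 30281 labelled cells, of which 1710 held a UMI of any of the 7 genes. The genes were chosen by their family, and Gzmc was selected on its measured UMIs, for its lower level after IR in the labelled WT tumor cells, so that difference is given as a description only. No comparison has a test, because no group has a second sample, and every interval is a 95% interval that covers counting error only.

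Granzymes are serine proteases stored with perforin in the secretory granules of natural killer (NK) cells and cytotoxic T cells. Perforin opens the membrane of the target cell, granzyme B starts apoptosis by cleaving caspases and their substrates, and granzyme A is a tryptase that acts through other substrates. Mouse Gzmc, Gzmd, Gzme and Gzmf lie beside Gzmb in 1 gene cluster and are known from strongly activated lymphocytes.

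On mm10 (positions from the GENCODE vM21 annotation), the cluster ran over chr14:56117626-56262260 on the minus strand, 145 kb that hold 7 granzyme genes in the order Gzme, Gzmd, Gzmg, Gzmn, Gzmf, Gzmc, Gzmb. Gzmc itself occupied chr14:56231441-56234656, with 5 exons in its longest coding transcript. Gzma lay alone of the members on chromosome 13 (chr13:113093825-113100981, minus strand) and Prf1 on chromosome 10 (chr10:61297833-61304680, plus strand). The promoters of Gzmc, Gzmd, Gzme and Gzmf are shown because these 4 neighbouring genes had their UMIs in few tumor cells and, in these data, near none in blood. Each line gives 60 bases that lie upstream of the start site, 5′ to 3′ on the gene's strand, from RefSeq on GRCm38.p6, with the longest run of bases that all 4 share in capitals.
Gzmc, chr14:56234683-56234742: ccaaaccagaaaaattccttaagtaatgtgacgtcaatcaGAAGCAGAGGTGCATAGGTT
Gzmd, chr14:56132623-56132682: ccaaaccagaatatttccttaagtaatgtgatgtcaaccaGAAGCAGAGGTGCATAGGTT
Gzme, chr14:56120656-56120715: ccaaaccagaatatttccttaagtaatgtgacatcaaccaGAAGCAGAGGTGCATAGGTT
Gzmf, chr14:56211458-56211517: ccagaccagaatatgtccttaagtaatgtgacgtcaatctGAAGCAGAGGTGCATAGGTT
The shared run has 20 bases and, on either strand, occurred in 5 of 32851 RefSeq promoters (0.0152%), those of these 4 genes and of Gzmg. Within the 60 bases any pair of the 4 promoters had 55 to 58 identical bases. The letters TGACGTCA, a cyclic AMP response element, were present in the Gzmc, Gzmf and Gzmg promoters and in 508 of the 32851 promoters (1.55%). A match of letters is a description of the sequence and shows no binding.

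The genes also differ in how well a 3′ read can tell them apart. Of the 50-base words in the last 500 bases of the longest coding transcript, 20.6% for Gzmd, 18.2% for Gzme and 7.10% for Gzmf also occurred in a transcript of another granzyme gene. No such word was shared for Gzma, Gzmb, Gzmc or Prf1. The counts of Gzmd, Gzme and Gzmf are therefore uncertain relative to each other, which is not the case for Gzmc.

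The labelled cells numbered 2703 (labelled WT) and 2284 (labelled cKO) in tumor control, 3367 and 3976 in tumor IR, 5101 and 4014 in blood control, and 4900 and 3936 in blood IR. The gene UMIs summed per group ranged from 20226489 to 26570770, with medians of 2844 to 8535 UMIs per cell. The tumor matrices held each other's barcodes: of the 12707 tumor control barcodes that passed the cell filter, 7286 were below the hashtag minimum but carried hashtags in tumor IR, and the same was true of 4915 of 12763 in tumor IR. The hashtag minimum removed these, and 274 barcodes with hashtags in both tumor libraries (24 in both blood libraries) remained. In myeloid-like cells, Lyz2 was at 8594 CPM (UMIs scaled to a depth of 1000000) in the labelled WT and 165 in the labelled cKO cells of tumor control. Ythdf2 went the other way, at 57.9 and 528 CPM, but 3′ tags need not come from the deleted part of the gene and so check nothing. The rule has no margin on the WT side: 59.9% of the cells labelled WT in tumor control and 23.7% in tumor IR had B0301 between 1 and 4 times B0302, against 2.78% and 1.86% in blood. Myeloid-like cells labelled WT in that range had Lyz2 at 9630 CPM in tumor control and 8239 in tumor IR. Those at or above 4 times had 7554 and 5904. These values cover myeloid-like cells only. Between the thresholds, 431 barcodes of tumor control and 501 of tumor IR had hashtags but no label.

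The UMIs of the 7 genes came from a small number of lymphoid cells inside the myeloid sort. Cells were called NK-like from at least 2 of 10 NK markers, T-like from at least 4 of 11 T cell markers, and myeloid-like from at least 4 of 18 myeloid markers. Klrb1c, which encodes the NK1.1 antigen and is 1 of the 10 markers of the gate, had a UMI in 71.5% to 95.4% of NK-like cells across the libraries and in at most 0.874% of all others, which describes the gate and is no check of it. NK-like cells numbered 182 in the control and 165 in the IR library of tumor, and 271 and 152 in those of blood. They had passed the same sort: Ly6c2, a gene for the Ly6C antigen, stood at 682 CPM in NK-like and 370 in myeloid-like cells of tumor control. Itgam, which encodes CD11b, stood at 80.5 and 478 CPM in the same cells, and at 335 and 389 in blood control.

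In tumor control, NK-like cells held 86.4% of the Gzma UMIs, 82.4% of the Prf1 UMIs, 81.0% of the Gzmc UMIs and 68.3% of the Gzmb UMIs. T-like cells held 23.8% of Gzmb, 14.5% of Gzmc, 8.61% of Prf1 and 6.64% of Gzma, and mixed cells, with markers of both lymphoid and myeloid cells, 1.52% to 5.69%. After IR the NK-like shares were 85.3% for Gzma, 79.0% for Prf1, 72.2% for Gzmc and 68.8% for Gzmb. In blood, NK-like cells held 90.6% to 94.1% of the UMIs of Gzma, Gzmb and Prf1.

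Nearly every NK-like cell carried the first 3 genes, and few carried Gzmc. In tumor control a Gzma UMI was found in 169 of 182 NK-like cells (92.9%, exact binomial interval 88.1% to 96.1%), a Gzmb UMI in 171, a Prf1 UMI in 162 and a Gzmc UMI in 32 (17.6%, 12.3% to 23.9%). Among the 71 T-like cells, 53 held Gzmb, 30 Prf1, 19 Gzma and 16 Gzmc. The T-like cells thus differed from the NK-like cells most in Gzma, the commonest granzyme transcript of the NK-like cells.

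Myeloid-like cells, the cells the sort was made for, held few of these UMIs. In tumor control 86 of 4129 myeloid-like cells had a Gzma UMI (2.08%), 41 a Gzmb UMI, 30 a Gzmc UMI and 6 a Prf1 UMI, and no cell had more than 2. At a median of 7301 UMIs these cells were deeper than the NK-like cells, whose group medians were 2677 and 2704. Thinned to 1000 UMIs per cell, the share of myeloid-like cells with a Gzma UMI came to 0.305% in labelled WT and 0.289% in labelled cKO cells, against 91.7% and 89.7% of NK-like cells. The near-empty droplets of the same library held 1507 Gzma, 911 Gzmb and 551 Gzmc UMIs. Whether the UMIs in myeloid-like cells are background of this kind was not tested. In tumor IR 1 myeloid-like cell had 10 Gzma UMIs and another 9 Gzmb UMIs.

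The number of cells behind the UMIs differed widely between the genes. In the labelled WT cells of tumor control, 6998 Gzma UMIs lay in 197 cells and 33 cells held 50% of them. The 3109 Gzmb UMIs lay in 197 cells (22 held 50%), and the 1005 Prf1 UMIs in 152 cells (24 held 50%). The 5240 Gzmc UMIs lay in 51 cells, 25 of which had a single UMI, while 5 cells held 50%, 12 cells held 90% and 1 cell held 749. In the labelled cKO cells of tumor control, 2792 Gzmc UMIs lay in 43 cells, of which 3 held 50% and 1 held 762. After IR, 256 Gzmc UMIs lay in 17 labelled WT cells, with 136 in 1 of them, and 689 lay in 25 labelled cKO cells, with 205 in 1 of them.

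**Figure D1:**
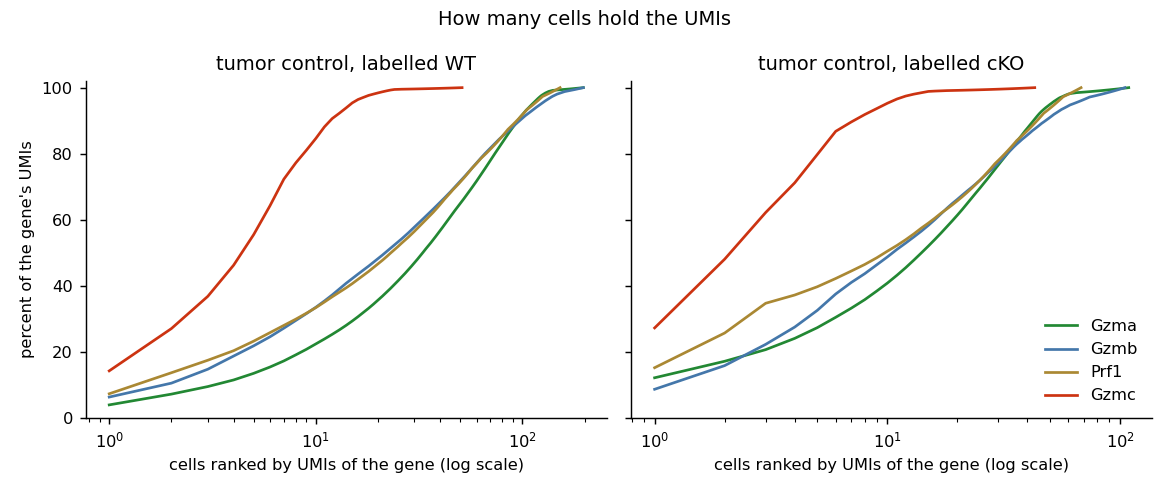
Cumulative percent of a gene's UMIs (vertical axis) over cells ranked by their UMIs of that gene (horizontal axis, log scale), in the labelled WT (left) and labelled cKO (right) cells of tumor control; each line is 1 gene. The Gzmc line passes 50% at 5 and at 3 cells, far to the left of the Gzma line, which passes it at 33 and at 15 cells.

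Summed over all labelled cells of a group, Gzma stood at 317 CPM in tumor control and 174 in tumor IR for labelled WT, and at 116 and 240 for labelled cKO. Gzmb stood at 141 and 84.6 CPM for labelled WT, and at 43.4 and 145 for labelled cKO. Prf1 stood at 45.6 and 19.3 for labelled WT, and at 15.9 and 25.6 for labelled cKO. These 3 genes were thus lower after IR among labelled WT cells and higher after IR among labelled cKO cells. On the log2 scale the ratios of IR to control were −0.87 (−0.93 to −0.81) for Gzma, −0.74 (−0.82 to −0.65) for Gzmb and −1.24 (−1.41 to −1.08) for Prf1 in labelled WT. In labelled cKO they were 1.05 (0.99 to 1.12), 1.74 (1.64 to 1.84) and 0.68 (0.50 to 0.87). The difference between the labels was not tested, and fewer cells of a type and less RNA per cell cannot be told apart in such sums.

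Gzmc stood at 238 CPM in tumor control and 11.4 in tumor IR for labelled WT, and at 111 and 25.9 for labelled cKO. It was lower after IR under both labels, with log2 ratios of −4.37 (−4.57 to −4.20) and −2.10 (−2.22 to −1.98). With a log2 ratio of 1 in either direction counted as called, 5 of the 7 members were called lower in the labelled WT cells of tumor, where 6.48% of 10311 genes with at least 100 UMIs were called and 3.84% were called lower. In labelled cKO, 2 members were called higher and 4 lower, where 22% of 10771 genes were called, 5.22% higher and 16.7% lower, and the median gene lay at −0.18. Gzmc counts in the first comparison because it was chosen there, and nothing is read from that count. Summing both tumor matrices for each hashtagged barcode gave Gzmc −4.39 and −1.99, and requiring a margin of 4 for the WT label as well gave −5.10 in labelled WT.

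**Figure D2:**
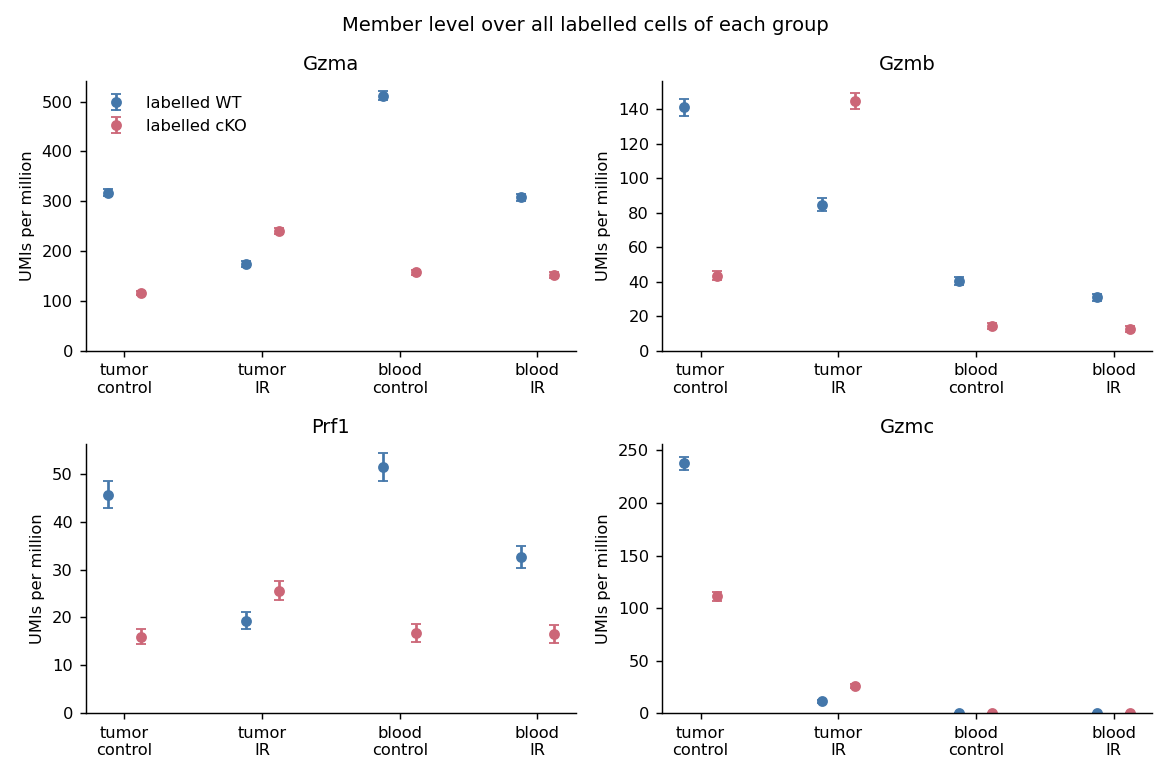
CPM (vertical axes, linear from 0) of Gzma, Gzmb, Prf1 and Gzmc over all labelled cells of each library (horizontal axis); points are group sums for labelled WT (blue) and labelled cKO (red), bars are exact Poisson 95% intervals. Gzmb reaches 141 in labelled WT of tumor control and 145 in labelled cKO of tumor IR, and Gzmc is at or near 0 in all blood groups.

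In labelled WT the share of NK-like cells was lower after IR, as were these sums, while in labelled cKO it was near level. NK-like cells were 122 of 2703 labelled WT cells in tumor control (4.51%, 3.76% to 5.37%) and 51 of 3367 in tumor IR (1.51%, 1.13% to 1.99%). Among labelled cKO cells they were 60 of 2284 (2.63%, 2.01% to 3.37%) in tumor control and 114 of 3976 (2.87%, 2.37% to 3.43%) in tumor IR. The labelled WT difference depended on the hashtag rule: among cells with B0301 at least 4 times B0302, NK-like cells were 24 of 1085 (2.21%) in control and 33 of 2568 (1.29%) in IR, and the control share was then below that of labelled cKO. With that margin the log2 ratio of IR to control for Gzma in labelled WT became −0.40. T-like cells were 42 and 11 in labelled WT, and 29 and 14 in labelled cKO. All these shares are of cells that had passed the sort.

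Within the NK-like cells of tumor the picture changed for labelled WT. Gzma stood at 12295 CPM, scaled to those cells' own UMIs, in control and 19463 in IR, and Gzmb at 4577 and 8524. Their log2 ratios of IR to control were 0.66 (0.60 to 0.73) and 0.90 (0.80 to 0.99), opposite in sign to the ratios over all labelled WT cells. With the margin of 4 on the WT side, which left 24 and 33 NK-like cells, they were 1.44 and 1.17. Prf1 stood at 1761 and 2006 CPM, a log2 ratio of 0.19 with an interval that reached 0. For labelled cKO the NK-like cells gave log2 ratios of 0.98 for Gzma, 1.85 for Gzmb and 0.73 for Prf1, close to those over all cells. Among genes with at least 100 UMIs in the NK-like cells, 3.26% of 860 genes in labelled WT and 5.18% of 984 in labelled cKO were past a log2 ratio of 1 in either direction, and the medians were −0.02 and 0.04.

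**Figure D3:**
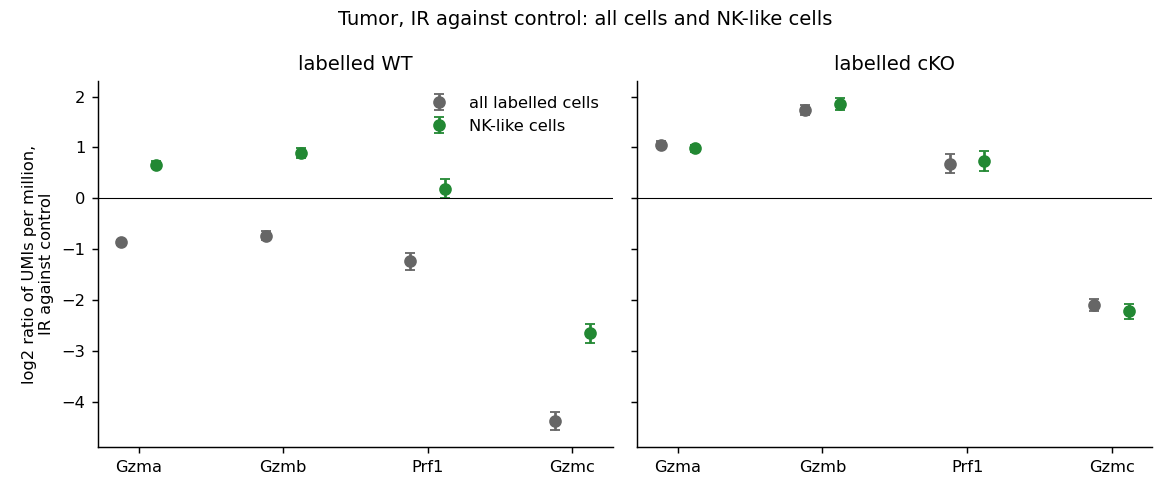
Log2 ratio of CPM, IR against control in tumor (vertical axis), for 4 members (horizontal axis) in labelled WT (left) and labelled cKO (right) cells; grey points are all labelled cells, green points NK-like cells only, and bars are 95% intervals of counting error. Gzma and Gzmb lie below 0 over all labelled WT cells (−0.87 and −0.74) and above 0 in their NK-like cells (0.66 and 0.90), while Gzmc lies below 0 throughout.

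The same order held for the typical cell, which the summed values could hide. The median NK-like cell labelled WT had 30.2 Gzmb UMIs per 10000 of its UMIs in tumor control and 74.4 in tumor IR, and labelled cKO had 20.4 and 60.3. Medians of Gzma were 143 and 207 for labelled WT, and 121 and 192 for labelled cKO. Medians of Prf1 were closer, at 15.2 and 18.8 for labelled WT, and 11.7 and 16.7 for labelled cKO. Single cells overlapped widely: for Gzmb in labelled WT the middle 50% of cells ran from 16.1 to 67.4 in control and from 43.9 to 117 in IR. The cells of a group come from 1 library and are no replicates of it.

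**Figure D4:**
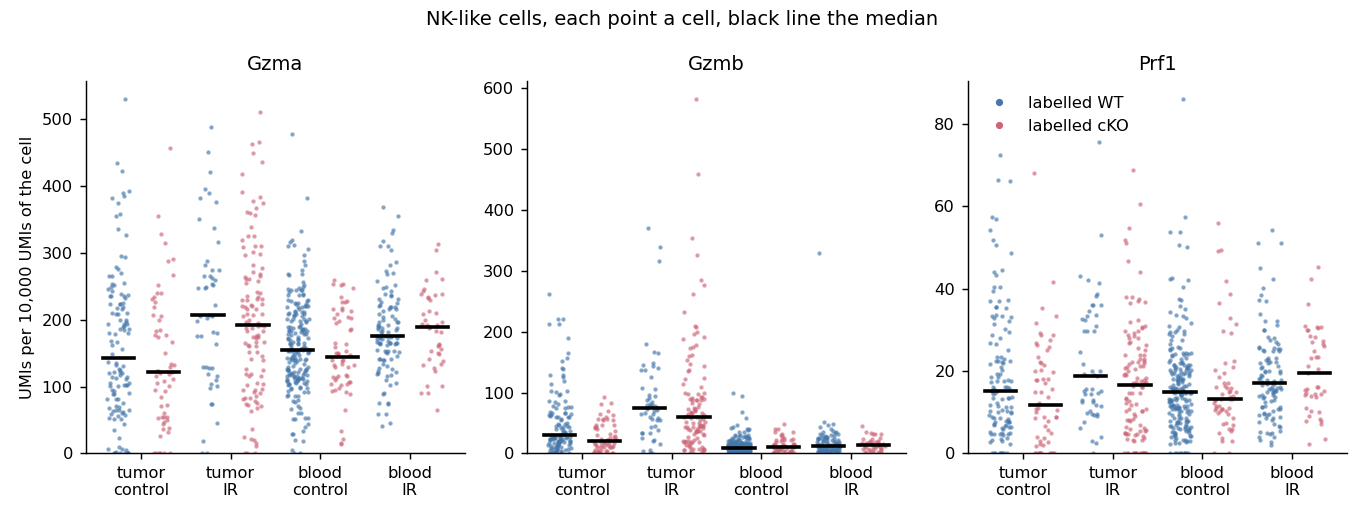
UMIs of Gzma, Gzmb and Prf1 per 10000 UMIs of the cell (vertical axes) in every NK-like cell, by library (horizontal axis) and label (blue WT, red cKO); each point is 1 cell and the black line is the median. The Gzmb medians are 30.2 and 20.4 in tumor control, 74.4 and 60.3 in tumor IR, and at most 13.6 in blood.

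Gzmc within NK-like cells stayed lower after IR, at 9576 and 1516 CPM for labelled WT (log2 ratio −2.66) and at 5563 and 1189 for labelled cKO (−2.22). With the margin of 4 on the WT side the first became −3.32, and without the single cell that held most Gzmc the second became −1.46. Without that margin, the share of NK-like cells with any Gzmc UMI did not show that order in labelled WT. It was 21 of 122 (17.2%) in control and 13 of 51 (25.5%) in IR, and thinned to 1000 UMIs per cell 14.6% and 15.6%. In labelled cKO it was 11 of 60 (18.3%) and 10 of 114 (8.77%), and 11.8% and 6.06% when thinned. The labelled WT shares were not read with the margin of 4. Of the 122 control cells, 98 had B0301 at 1 to 4 times B0302. Labelled WT cells of all classes in that range held 364 Gzmc UMIs, against 4876 in those at or above 4 times. Without the margin, the amount per cell differed in labelled WT. Among NK-like and T-like cells with a Gzmc UMI the median count was 34 in tumor control (29 cells) and 2 in tumor IR (13 cells). In labelled cKO these medians were 16 (19 cells) and 6 (14 cells).

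Cells rich in Gzmc, with at least 10 UMIs of it, numbered 23 in labelled WT and 15 in labelled cKO of tumor control, and 4 and 7 in tumor IR. Their Gzmc UMIs ran from 13 to 749 (median 132) and from 11 to 762 (median 63) in control. In tumor IR they were 136, 46, 37 and 15 in the 4 labelled WT cells, and ran from 15 to 205 (median 50) in the 7 labelled cKO cells. These cells held 91.4% to 99.3% of a group's Gzmc UMIs. They were mixed in kind: in tumor control, 15 of the 23 labelled WT cells were NK-like, 5 T-like and 3 of another class, and of the 15 labelled cKO cells 5 were NK-like, 6 T-like and 4 of another class. They were also deep, with medians of 11944 and 10878 UMIs in tumor control, against 2890 and 2817 in the other NK-like and T-like cells.

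Cells rich in Gzmc often lacked Gzma. Among the 31 Gzmc-rich NK-like or T-like cells of tumor control with at least 1000 UMIs, 15 had a Gzma UMI (48.4%, or 43.7% when thinned to 1000 UMIs), against 168 of the 217 others (77.4%, 75.4% thinned). Both sides pool NK-like and T-like cells, and the comparison was not made within each class. Over all cells of the 2 classes in tumor control, 169 of 182 NK-like and 19 of 71 T-like cells had a Gzma UMI. All 31 Gzmc-rich cells had a Gzmb UMI, and 188 of the 217 others did. Of the 2 cells with the most Gzmc in labelled WT, with 749 and 671 UMIs, neither held Gzma, and the cell with 762 in labelled cKO held none. In tumor IR 6 of 10 Gzmc-rich cells held Gzma, against 157 of 176 others. Gzmb and Gzma, by contrast, were usually found together: of 206 labelled cells of tumor control with at least 2 Gzma UMIs, 182 also had at least 2 of Gzmb.

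**Figure D5:**
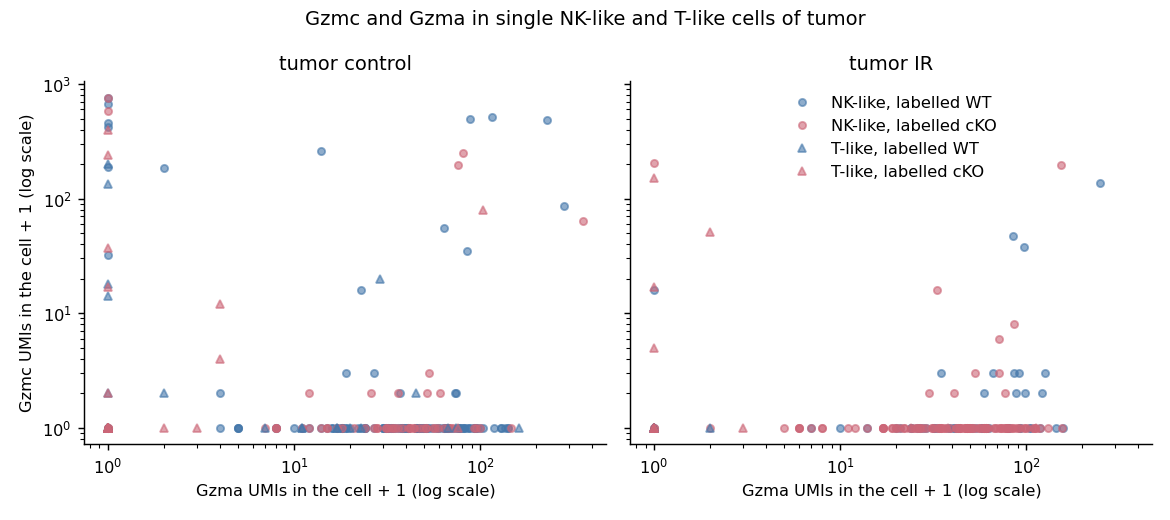
Gzmc UMIs + 1 (vertical axis, log scale) against Gzma UMIs + 1 (horizontal axis, log scale) in each NK-like (circles) and T-like (triangles) cell of tumor control (left) and tumor IR (right), blue for labelled WT and red for labelled cKO. Cells with at least 100 Gzmc UMIs in tumor control lie both on the left edge, with no Gzma UMI, and to the right with up to 228 Gzma UMIs, and most NK-like cells lie along the bottom with Gzma and no Gzmc.

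Other markers, which the choice by Gzmc did not use, were read in the same cells. Itga1, an integrin of tissue-resident and type 1 innate lymphoid cells, had a UMI in 20 of the 31 Gzmc-rich cells and in 23 of the 217 others, or 14.95% and 3.54% when thinned to 1000 UMIs. Stmn1, a marker of cycling cells, had a UMI in 13 and 32, or 20.8% and 7.25% thinned, and Mki67 in 8 and 8, or 7.60% and 1.53% thinned. Eomes, a transcription factor of mature NK cells, had a UMI in 11 and 95 (35.5% and 43.8%), or 6.23% and 23.3% thinned. Klrb1c and Ncr1, NK cell receptor genes, changed order with depth: Klrb1c was at 71.0% and 63.1%, or 15.5% and 37.8% thinned, and Ncr1 at 67.7% and 35.9%, or 13.0% and 16.5% thinned. These 3 genes are markers of the NK gate, which counts UMIs and so is passed at lower levels per UMI by the deeper cells. Cd3e was near level at 11.4% and 10.4%. Of the other type 1 markers, Tmem176a followed Itga1, with a UMI in 8 and 5 cells, or 3.30% and 0.54% thinned. The rest did not: Cxcr6 was at 4.35% and 5.74%, Il7r at 4.40% and 5.05%, and Cd200r1 was in none of the 31 cells and in 8 of the 217 others. In tumor IR, with 10 Gzmc-rich cells, Itga1 was at 3.89% and 1.58% thinned. Tmem176a was there in none of the 10 and in 5 of the 176 others.

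Gzmd, Gzme and Gzmf had no UMI in the labelled cells of blood and lay in fewer tumor cells than Gzmc. In the labelled WT cells of tumor control, Gzmf had 1383 UMIs in 22 cells, with 641 in 1 cell and 90% in 3. Gzmd had 377 in 7 cells, with 234 in 1, and Gzme 116 in 6 cells, with 103 in 1. The cell with 749 Gzmc UMIs was the top cell for all 3 of them. Labelled cKO of tumor control held 246 Gzmd, 140 Gzme and 238 Gzmf UMIs, tumor IR held 14, 1 and 19 in labelled WT, and 65, 41 and 16 in labelled cKO. Since 1 or 2 cells held 50% of each of these sums, and at most 5 cells held 90%, the order between groups follows few cells. All 6 tumor control cells with at least 2 Gzmd UMIs also had at least 2 of Gzmc, as had 6 of 7 for Gzme and 8 of 11 for Gzmf.

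Between the labels, the members except Gzme were lower in labelled cKO than in labelled WT cells of tumor control. The log2 ratios were −1.46 (Gzma), −1.70 (Gzmb), −1.51 (Prf1), −1.09 (Gzmc), −0.80 (Gzmd) and −2.72 (Gzmf). Gzme was near level at 0.08 (−0.28 to 0.45), and in NK-like cells it was higher in labelled cKO (0.80). Of the 7 members 5 were called lower, where 4.73% of 10770 genes were called and 1.37% were called lower. One of the 5, Gzmf, was higher in labelled cKO once the 6% of barcodes with the highest doublet scores were removed (0.88). With the margin of 4 on the WT side the log2 ratio of Gzma became −0.82, which is not called, and that of Gzmc −2.10. In tumor IR the order was turned, with 0.47 (Gzma), 0.77 (Gzmb), 0.41 (Prf1) and 1.18 (Gzmc). There 1 of 4 members with enough UMIs, Gzmc, was called higher, where 0.986% of 10146 genes were called and 0.197% were called higher. That call was lost with the margin on the WT side, where the ratio of Gzmc was 0.90. Gzmc was chosen on its levels in the labelled WT cells of tumor, so nothing is read from its calls between the labels. Within NK-like cells labelled cKO was lower in both: −0.67 and −0.35 for Gzma, −1.24 and −0.28 for Gzmb, in control and IR. These label ratios within NK-like cells were not computed with the margin on the WT side. Of the 122 NK-like cells labelled WT in tumor control, 98 lay in the range where B0301 was 1 to 4 times B0302. The cells at or above 4 times held 4876 of the 5240 Gzmc UMIs of labelled WT with only 24 of the NK-like cells, and stood at 151 CPM for Gzmb against 132 in the range below, and at 204 CPM for Gzma against 415. In NK-like cells of tumor control the intervals of the label difference reached past 0 for both Ythdf2 (log2 ratio 0.09, −1.01 to 1.17) and Lyz2 (−0.96, −2.67 to 0.35).

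In blood, Gzma stood at 512 CPM in control and 308 in IR for labelled WT, and at 157 and 152 for labelled cKO. Gzmb stood at 40.3 and 30.9, and at 14.4 and 12.5. Prf1 stood at 51.3 and 32.5, and at 16.7 and 16.5. All 3 were lower in labelled cKO than in labelled WT cells of both blood libraries: the log2 ratios were −1.70, −1.48 and −1.61 in control, where all 3 members were called lower (2.12% of 9775 genes were called, 1.48% lower), and −1.02, −1.30 and −0.98 in IR, where 2 were (0.695% of 9779 genes, 0.522% lower). After IR none of the 3 was called under either label (1.27% and 1.42% of genes). NK-like cells in control and IR numbered 213 (4.18%) and 109 (2.22%) in labelled WT, and 58 (1.44%) and 43 (1.09%) in labelled cKO. Within blood NK-like cells the label made little difference in control, with log2 ratios of −0.10 for Gzma, 0.17 for Gzmb and 0.01 for Prf1. Over all labelled WT cells of blood, the ratios of IR to control were −0.73 (Gzma), −0.38 (Gzmb) and −0.65 (Prf1). Within the NK-like cells they were above 0, as in tumor, at 0.22, 0.56 and 0.30. In labelled cKO the NK-like cells gave 0.33, 0.10 and 0.37, with the interval of Gzmb reaching past 0 (−0.16 to 0.36).

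Between tumor and blood NK-like cells, Gzmb was higher in tumor NK-like cells in all 4 pairings of treatment and label, with log2 ratios of 1.90 and 0.49 in control (labelled WT and cKO) and 2.24 and 2.24 in IR. Gzma stood at −0.35 and −0.92 in control and 0.10 and −0.26 in IR, and Prf1 at 0.17 and −0.78, and 0.06 and −0.43. In labelled cKO of control, Gzma and Prf1 thus differed by more than Gzmb. Gzmc had no UMI in the 271 NK-like cells of blood control or the 152 of blood IR. With 3 counts set in place of 0, its summed level in tumor control came to 2272-fold that of blood in labelled WT and 357-fold in labelled cKO. These figures take UMIs as independent, but 12 cells held 90% of the Gzmc UMIs of labelled WT in tumor control. They are therefore no lower limit, since a single rich cell could change them. By cells, 32 of 182 NK-like cells of tumor control held a Gzmc UMI. By the same rule, Gzmd and Gzme in tumor control came to 182-fold and 54.8-fold in labelled WT, and 45.3-fold and 25.9-fold in labelled cKO. Gzmf came to 603-fold in labelled WT, and each of these figures rests on a few cells. For each Gzma UMI, NK-like cells held 0.336 Gzmb UMIs in tumor control and 0.451 in tumor IR, against 0.0812 and 0.0937 in blood.

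Other genes of the granule pathway were read from fixed lists, over all labelled cells, among genes with at least 20 UMIs. In labelled WT of tumor, where 9.88% of 12773 genes were past a log2 ratio of 1, Gzmg (−6.04) and Gzmk (−2.02) were lower after IR, as the other granzymes with enough UMIs. Of 11 genes of the granule machinery only Nkg7, a granule membrane protein of cytotoxic cells, was past that limit (−1.47). The list's median was 0.37. Srgn, the proteoglycan that packs granzymes, stood at 4065 and 6046 CPM, but mostly in myeloid-like cells, and so did Ctsc, the protease that activates granzymes. Of 5 inhibitors Serpinb9b was past it (−1.43). Of 4 death ligands and cytokines, Fasl was lower (−1.43) and Tnfsf10, which encodes TRAIL, higher (1.79). Of 6 regulators Eomes was lower (−1.86). Il2rb (−1.52) and Il18r1 (−1.07), receptor subunits of cytotoxic lymphocytes, were lower too. Il15 (1.87), the cytokine that sustains NK cells, and Il15ra (1.25), which presents it, were higher. Under both labels together, Il15 had 279 UMIs in myeloid-like and 2 in NK-like cells of tumor control, and 1289 and 1 in tumor IR. Il15ra had 237 and 4 in control, and 950 and 0 in IR. Tnfsf10 had 70 and 16 in control, and 519 and 4 in IR. The share of NK-like cells moved with the lower lymphoid genes, and within the NK-like cells of both labels together the order was not the same: from tumor control to tumor IR, Nkg7 stood at 3051 and 4059 CPM, Il2rb at 1182 and 1351, Fasl at 188 and 233, and Eomes at 256 and 208.

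In labelled cKO of tumor, where 26.2% of 13126 genes were past the same limit, Nkg7, Fasl and Eomes were not among them. Il15 (1.62), Il15ra (1.63) and Tnfsf10 (2.85) were higher after IR there too, beside Ifng (2.07) and Il12rb2 (2.03). Gzmg was lower (−3.04), but 66 of its 69 UMIs in control lay in 1 cell. The granule machinery had 3 of 11 genes higher and none lower, a share near the 26.2% of all genes, and its median was 0.87. The inhibitors had 1 of 5 genes higher and 1 lower, and the death ligands and cytokines 2 of 4 higher and 1 lower. The medians of the inhibitors, death ligands, regulators and receptors were 0.91, 1.41, 0.55 and 0.76, against −0.21 for all genes. Under both labels together, Srgn, Ctsc and Lamp1 had 277972, 82927 and 23757 UMIs in myeloid-like cells of tumor IR. In NK-like cells they had 903, 64 and 62. The IR comparison in labelled WT and the one between labels in tumor share groups and are no separate evidence.

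Likeness was measured as Pearson's r of log2(CPM + 10) over 33 profiles of group and cell class with at least 20 cells, which share libraries, and is a description. Gzma was most like Prf1 (0.985), Nkg7, Il2rb, Klre1 and Tbx21. Gzmb was most like Sh2d2a (0.973), Il2rb, Nkg7, Prf1 and Gzma. Prf1 was most like Gzma, Tbx21, Klrb1c, Il2rb and Nkg7 (0.980). Gzmc stood apart, with Cables1 (0.901), Sult2b1, Icos, Gm50012 and Abcb9 (0.847) as its nearest genes and no other member among them.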

How the data were processed

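Single-cell RNA and hashtag libraries (10x 3′ v3.1 chemistry) of tumor and blood, control and IR, were analysed. The authors deposited raw counts (UMIs per feature and barcode, not normalized), made with Cell Ranger on mm10. The file headers name Cell Ranger 4, and the submitters' processing notes name Cell Ranger 6.0.1 and Seurat 4.0.6. No column of per-sample values was left unused. All deposited barcodes were read. Cells had at least 500 gene UMIs, 200 genes and at most 25% mitochondrial UMIs, and a label needed 20 hashtag UMIs, with a margin of 4 for cKO. Classes came from the cell's own marker UMIs, cells with a lymphoid call and 6 or more myeloid markers being called mixed, and cells with 3 stromal markers stromal-like. The minima of the classes were set after the data had been seen. Scrublet's own threshold (in scanpy 1.11.5) marked at most 2 barcodes per library and had not worked, so no doublets were removed in the values reported, and removing the 6% with the highest scores was an alternative.

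UMIs were summed per group and scaled to CPM. Intervals are exact Poisson for levels, exact conditional binomial for log2 ratios and Clopper-Pearson for shares (scipy 1.17.1), and cover counting error only. Ratios had 1 UMI, scaled to depth, added to each sum. The ratio and interval functions were tested on simulated data. TMM factors came from edgeR 4.0.16. Thinned shares are expected values at 1000 UMIs per cell, and shallower cells (at most 7 NK-like cells per group) were left out. The 7 members were read in every comparison, and ratios are not printed for all of them. From the lists, genes with 20 UMIs and a log2 ratio of at least 1 were named for the IR comparison in labelled WT of tumor, at most 4 per list. For labelled cKO only some of them were named. The 5 nearest genes by correlation were named too. The members, markers and lists were chosen with earlier results of these data known. The Gzmc-rich cells, at 10 UMIs, were also defined after the data had been seen, as were the markers named for them. Gene positions came from GENCODE vM21, which has the same build as the files but another release than the authors' annotation. Alternatives are given in the closing section.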

Additional observations from a re-analysis of the deposited data

Results flagged for a closer look

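For 3 members the labels moved in opposite directions after IR in tumor, as log2 ratios over all labelled cells. Gzma gave −0.87 in labelled WT and 1.05 in labelled cKO. Gzmb gave −0.74 and 1.74. Prf1 gave −1.24 and 0.68. Each group is 1 pool, so each ratio compares 1 pool with 1 other, and the difference between the labels was not tested. NK-like cells made up 4.51% and 1.51% of labelled WT cells, and 2.63% and 2.87% of labelled cKO cells, in control and IR. With B0301 at least 4 times B0302, the shares in labelled WT were 2.21% and 1.29%, and Gzma gave −0.40 there. Within NK-like cells all 3 genes were above 0 under both labels (0.66 and 0.98, 0.90 and 1.85, 0.19 and 0.73), with the interval of Prf1 in labelled WT reaching 0.

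Gzmc UMIs were also found in barcodes with fewer than 20 hashtag UMIs, which enter no comparison. In tumor IR such barcodes held 3469 Gzmc UMIs in 65 barcodes, more than the 1073 in barcodes of that library with 20 or more, and in tumor control they held 597. All of these UMIs lay in barcodes that carried at least 20 hashtag UMIs in the other tumor library. The 4987 labelled cells of tumor control held 8032 Gzmc UMIs in their own matrix, and 4799 of them also occurred in the tumor IR matrix, where they held 3595. Of the 38 Gzmc-rich cells of tumor control, 36 occurred there, all 36 with Gzmc. Over all shared labelled cells of tumor control, the ratio of UMIs in the tumor IR matrix to those in their own had a median of 0.455. Over all barcodes, whatever their hashtag UMIs, Gzmc had 9341 UMIs in the tumor control and 4937 in the tumor IR matrix.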

How the results depend on the processing

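Each group was 1 pool in 1 library, so the intervals hold counting error and no spread between mice. No paired analysis was possible because the labels carry no replicate numbers and each group has 1 pool. Depth limits Gzmd, Gzme and Gzmf, which rest on few cells each, and blood Gzmc. Of 447 alternative values of the members' ratios between groups, 361 stayed within the counting interval of the reported value, 81 left it and 5 changed the sign of a called value. Of 80 alternatives within NK-like cells, 57 stayed and none changed sign. Summing both tumor matrices, 3 NK markers, leaving out the top barcode or the lymphoid cells were chosen after seeing the data. For none of these changes was the cause tested.

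Without NK-like, T-like and mixed cells, the IR ratios in labelled WT became 0.49 (Gzmb), 0.50 (Prf1) and −3.56 (Gzmc). Those in labelled cKO became 1.49 (Gzmb) and −2.91 (Gzmc), and those of cKO to WT in tumor control 0.26 (Gzmc) and 1.67 (Gzmf). Few cells lay behind these Gzmc values. In labelled WT, myeloid-like cells held 17 Gzmc UMIs in control and 4 in IR, and 1 stromal-like cell of control held 83. In labelled cKO, myeloid-like cells held 14 and 18, and single cells of no named class held 50, 45 and 25 in control. Without the top barcode, Gzmb and Gzmc became −0.64 and −4.15 in labelled WT, 1.64 and −1.64 in labelled cKO, and Gzmd of cKO to WT in tumor IR became −1.32. With TMM factors Gzmb became −0.59 and 1.93, and Gzmc −1.91 in labelled cKO. With a symmetric hashtag margin labelled WT gave −0.86 (Gzmb) and −5.10 (Gzmc), and with the order-of-magnitude cell threshold −0.49 (Gzmb). With the 6% highest Scrublet scores removed, Gzmc in labelled WT became −3.86, and Gzmf of cKO to WT in tumor control 0.88.

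Within NK-like cells labelled WT, Gzmb became 0.79 without the top barcode, 0.78 with Leiden classes, 1.02 with 3 NK markers, 1.05 with the order-of-magnitude threshold and 1.17 with the symmetric margin, and Gzmc became −2.40 without the top barcode, −2.87 with Leiden classes, −3.03 with the order-of-magnitude threshold, −3.32 with the symmetric margin and −2.21 with Scrublet. In labelled cKO, Gzmb became 1.62 with Leiden classes, and Gzmc −1.46 without the top barcode, −1.66 with 3 markers and −1.997 with the order-of-magnitude threshold. The share of Gzmc UMIs in NK-like or T-like cells was 95.5% in tumor control, and 98.4%, 96.0% and 96.3% with Leiden classes, a minimum of 1000 UMIs and Scrublet. In tumor IR it was 95.6%, and 97.1% and 97.6% with Leiden classes and Scrublet.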

Other observations

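T-like cells of tumor also held member UMIs. In tumor control 71 T-like cells held 999 Gzmb and 1163 Gzmc UMIs, and in tumor IR 25 T-like cells held 1006 and 221. Ifng, the interferon of type 1 lymphocytes, stood at 586 CPM in T-like and 89.1 in NK-like cells of tumor control, and at 742 and 439 in tumor IR. Serpinb9, the inhibitor that protects killer cells from their own granzyme B, stood at 821 CPM in NK-like, 419 in T-like and 10.4 in myeloid-like cells of tumor control. Serpinb9b stood at 113 CPM in NK-like cells and 4.32 in T-like cells. Gzmk was the reverse of Gzma, with 23 UMIs in T-like and 2 in NK-like cells of tumor control.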
